A study of Mus musculus with 2 samples.

Results

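Cells selected as T, NK and innate lymphoid cells made up 135 of 29623 kept cells in a single-cell RNA sequencing study of mouse ovary. They were selected on their own transcripts: a cell was taken if it held at least 1 unique molecular identifier (UMI, 1 counted RNA molecule) of at least 3 of the 8 genes Nkg7, Gzma, Ncr1, Klrb1c, Cd3e, Cd3g, Trbc2 and Il7r, and if C1qa, C1qb and C1qc summed to under 300 CPM (UMIs of a gene scaled to a common total per cell). The PS-MP library gave 42 such cells and the control library 93. The PS-MP ovaries came from female ICR mice gavaged daily for 35 days from 3 weeks of age with 1 mg of 0.1 µm polystyrene microplastics in 100 µL. The control ovaries came from female ICR mice given ddH2O on the same schedule, and all ovaries were taken at 8 weeks. Each group was captured as 1 library on the BD Rhapsody platform, the number of mice pooled per library is not clear from the labels, and with 1 library per group no difference between PS-MP and control could be tested. The intervals given below are exact 95% intervals that cover counting error only, not the variation between mice or between cells.

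T cells recognise antigen through a receptor of alpha and beta or of gamma and delta chains, which signals through the CD3 subunits and the kinases Lck and Zap70. NK cells and type 1 innate lymphoid cells lack that receptor, carry activating and inhibitory receptors such as NKp46 (Ncr1) and the Klr family, and kill with perforin and granzymes. In the ovary such lymphocytes sit among granulosa, theca and stromal cells and macrophages, and leukocytes, lymphocytes among them, are known to gather around ovulating follicles and regressing corpora lutea.

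The 250 bases before the RefSeq transcription start (build GRCm38.p6) of 4 genes that the selection used are shown, because the results turn on which cells carry the NK genes Ncr1 and Gzma and which carry the CD3 genes Cd3g and Cd3e. Capitals mark matches on either strand to the Runx motif TGTGGT or the ETS motif AGGAAG, read 5′ to 3′.
Ncr1, chr7:4337465-4337714, plus strand: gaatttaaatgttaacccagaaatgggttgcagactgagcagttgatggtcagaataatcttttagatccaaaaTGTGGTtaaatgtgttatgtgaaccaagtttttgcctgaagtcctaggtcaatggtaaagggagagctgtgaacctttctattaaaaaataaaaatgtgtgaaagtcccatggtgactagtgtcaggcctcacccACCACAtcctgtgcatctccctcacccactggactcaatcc
Gzma, chr13:113100982-113101231, minus strand: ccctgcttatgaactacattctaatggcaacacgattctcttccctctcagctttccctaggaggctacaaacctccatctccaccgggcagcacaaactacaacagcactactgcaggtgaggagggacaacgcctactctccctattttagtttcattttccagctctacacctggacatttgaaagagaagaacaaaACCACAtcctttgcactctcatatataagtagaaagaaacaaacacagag
Cd3g, chr9:44980432-44980681, minus strand: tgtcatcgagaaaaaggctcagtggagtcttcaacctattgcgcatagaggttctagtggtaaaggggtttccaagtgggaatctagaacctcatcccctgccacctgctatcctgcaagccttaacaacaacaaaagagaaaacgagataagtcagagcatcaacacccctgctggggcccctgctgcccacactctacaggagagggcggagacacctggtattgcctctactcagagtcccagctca
Cd3e, chr9:45009612-45009861, minus strand: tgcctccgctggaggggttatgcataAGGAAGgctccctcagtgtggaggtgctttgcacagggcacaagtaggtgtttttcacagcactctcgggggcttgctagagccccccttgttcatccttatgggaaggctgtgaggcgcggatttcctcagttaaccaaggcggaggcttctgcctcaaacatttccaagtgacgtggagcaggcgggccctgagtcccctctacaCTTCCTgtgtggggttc
The Runx motif stood 176 and 41 bases before the Ncr1 start and 50 bases before the Gzma start, and the ETS motif 224 and 17 bases before the Cd3e start. The Cd3g window held neither, and none of the 4 held the T-box motif GGTGTGA on either strand. Of all 32851 RefSeq windows of this length, 14.05% held the Runx motif, 29.5% the ETS motif and 3.33% the T-box motif.

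The cells selected in PS-MP had a median of 7358.5 UMIs and those in control a median of 7182, against 8789 in PS-MP and 9721 in control for the remaining cells that had neither a C1q sum of at least 1000 CPM nor a UMI of Ptprc, the pan-leukocyte gene. All cells kept had at least 500 genes and at most 25% mitochondrial counts. Of the barcodes, 3 occurred in both libraries, none of them in a selected cell. Among the selected cells 23 of 42 in PS-MP and 25 of 93 in control held exactly 3 of the 8 genes. Just outside the limit, cells with exactly 2 genes numbered 23 in PS-MP and 32 in control with the same C1q limit, and all cells with 2 genes had a median of 3 UMIs over the 8 genes in each library, against 9 in each library for cells with exactly 3. Of the selected cells 5 held any C1q count, the highest at 259 CPM, and the 3 cells that the C1q limit removed were control cells at 5593 CPM or more.

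Most of the selected cells did not have a purely lymphoid RNA content. The markers of granulosa cells, of stroma and theca and of endothelium, 26 genes in all, summed to a median of 9707 CPM per selected cell in PS-MP and 2699 CPM in control, against 13621 CPM in PS-MP and 13969 CPM in control in the remaining cells. A limit of 2500 CPM, chosen after these values were seen, separated 10 cells in PS-MP and 46 in control with few such transcripts (somatic-low cells) from 32 in PS-MP and 47 in control with many (somatic-high cells). The somatic-high cells had a median of 8644.5 UMIs in PS-MP and 10711 in control, and the somatic-low cells 4658.5 and 5529.5 UMIs in PS-MP and control. Of the 79 somatic-high cells 62 reached 2500 CPM in granulosa markers alone, 16 in stroma and theca markers and 1 in endothelial markers. No Ptprc UMI was found in 20 of the 79 somatic-high cells and in 3 of the 56 somatic-low cells.

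Inha, the inhibin alpha subunit gene of granulosa cells, stood at 6772 CPM in PS-MP and 6732 CPM in control somatic-high cells, against 7199 CPM in the remaining cells, so its level there was that of the somatic cells themselves. In somatic-low cells it was 553 CPM in PS-MP and 329 CPM in control. C1q-high cells, with a C1q sum of at least 1000 CPM, carried 2500 CPM or more of somatic marker RNA less often: 16.2% (11.3 to 22.2) in PS-MP and 12.4% (9.43 to 16.0) in control, against 76.2% of selected cells in PS-MP and 50.5% in control. Other cells with a Ptprc UMI, neither selected nor C1q-high, did so in 55.6% (50.3 to 60.9) in PS-MP and 52.1% (48.4 to 55.8) in control. A high somatic load was thus not particular to the selected cells. The doublet caller scrublet marked 358 kept cells in PS-MP and 315 in control, and 0 of the 135 selected cells. Its median score was nevertheless 0.0655 in PS-MP and 0.108 in control somatic-high cells. In somatic-low cells it was 0.052 in PS-MP and 0.0586 in control, and in all kept cells 0.027 and 0.0265. Whether the somatic-high cells are 2 cells under 1 barcode was not tested.

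A single cell weighed heavily among the 10 somatic-low cells of PS-MP. It held 19767 of their 63265 UMIs, 31.2%, had 2327 CPM of somatic markers, just under the limit, 16.0% mitochondrial counts, and 25 of the 35 Inha UMIs. Without this deepest cell, a restriction made after seeing the data, Inha was at 230 CPM in PS-MP and 329 CPM in control. The main comparisons below are therefore given for all selected cells, for the somatic-low cells, and for the somatic-low cells without the deepest cell, which leaves 9 cells and 43498 UMIs in PS-MP.

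**Figure D1:**
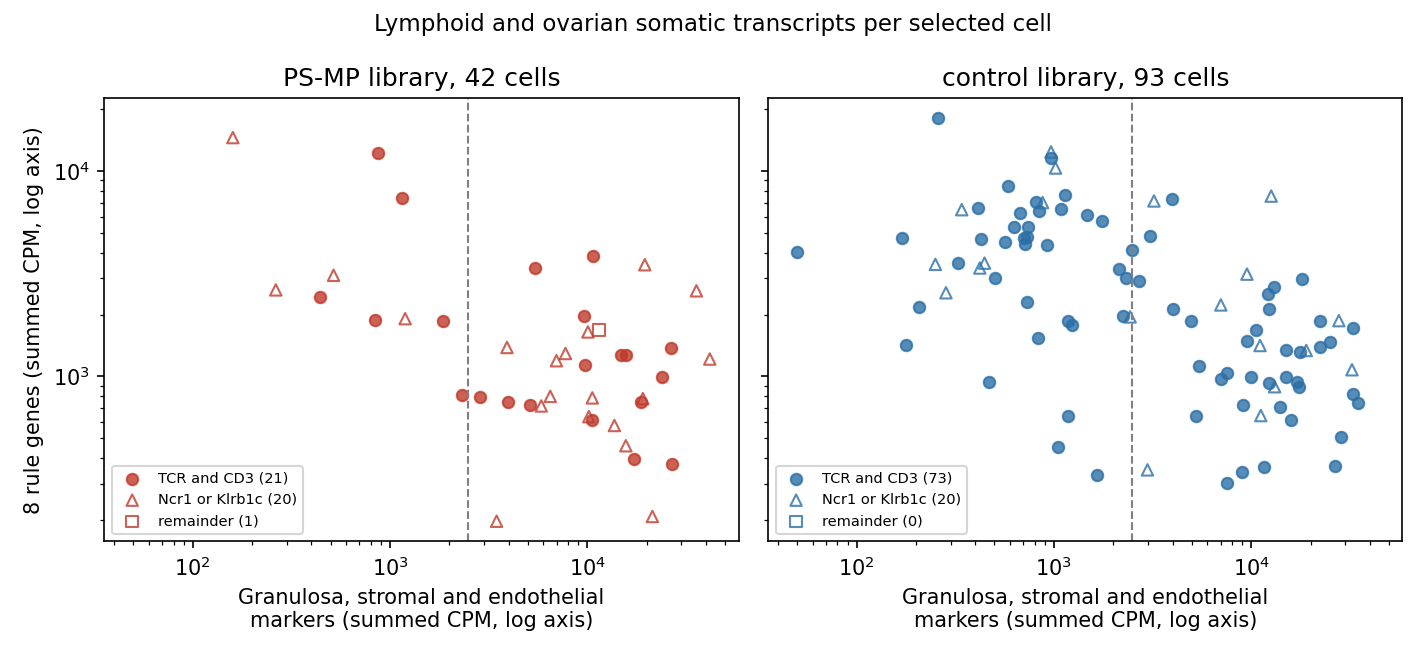
Each point is 1 selected cell, with the summed CPM of the 26 granulosa, stroma and theca, and endothelial markers on the x axis and the summed CPM of the 8 selecting genes on the y axis, both on log scales; PS-MP is on the left and control on the right, filled circles have at least 2 of 6 T-cell receptor and CD3 genes, triangles have fewer and an Ncr1 or Klrb1c UMI, and cells under 50 CPM are drawn at 50. Left of the dashed line at 2500 CPM lie 10 PS-MP and 46 control cells, and their values on the y axis reach above those on the right.

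Selected cells were a smaller fraction of kept cells in PS-MP than in control. They were 0.284% (0.205 to 0.384) of kept cells in PS-MP, 42 of 14770, and 0.626% (0.506 to 0.767) in control, 93 of 14853, a ratio of 0.454 (0.308 to 0.661). The difference was wider among somatic-low cells, with 10 cells or 0.0677% (0.0325 to 0.124) in PS-MP and 46 cells or 0.310% (0.227 to 0.413) in control, a ratio of 0.219 (0.0984 to 0.439). Somatic-high cells were 0.217% (0.148 to 0.306) in PS-MP and 0.316% (0.233 to 0.421) in control, a ratio of 0.685 whose interval of 0.423 to 1.10 includes 1. The somatic-low and somatic-high ratios were not tested against each other.

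The other leukocytes were scarcer in PS-MP as well. C1q-high cells were 1.29% of kept cells in PS-MP and 2.81% in control, a ratio of 0.460 (0.385 to 0.547). Somatic-low cells with a Ptprc UMI were 2.07% in PS-MP and 4.95% in control, a ratio of 0.419 (0.365 to 0.479). As a share of all cells with a Ptprc UMI, selected cells were 5.81% (4.01 to 8.10), 32 of 551, in PS-MP and 6.71% (5.35 to 8.28), 80 of 1193, in control, a ratio of 0.866 (0.556 to 1.32). Restricted to somatic-low cells on both sides, that share was 3.27% (1.58 to 5.93) in PS-MP and 5.85% (4.27 to 7.80) in control, a ratio of 0.559 (0.250 to 1.13). With the leukocytes as denominator, the counting interval of the ratio for selected cells thus included 1 on either basis.

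**Figure D2:**
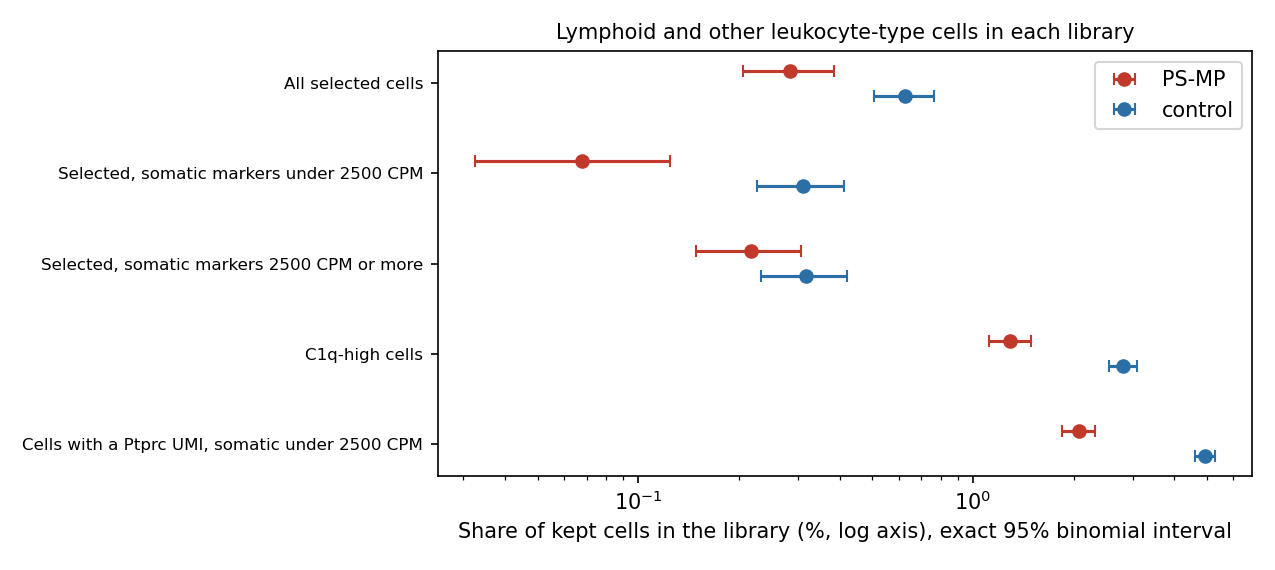
Points are the share of kept cells in each library in percent on a log axis, PS-MP above control in each pair, and bars are exact 95% binomial intervals. Intervals of PS-MP and control do not overlap for all selected cells, somatic-low selected cells, C1q-high cells and somatic-low cells with a Ptprc UMI, and they overlap for somatic-high selected cells.

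The somatic-low cells carried the T and NK genes that the label names. Il2rb, the beta chain of the IL-2 and IL-15 receptors, was at 1027 CPM in PS-MP and 1290 CPM in control and had a UMI in 9 of 10 and 41 of 46 cells. Coro1a, an actin regulator of leukocytes, was at 1075 CPM in PS-MP and 1220 CPM in control, and the NK and T granule membrane gene Nkg7 was found in 10 of 10 cells in PS-MP and 38 of 46 in control. In the remaining cells Il2rb, Coro1a and Nkg7 were at 1.20, 3.15 and 0.200 CPM, and UMIs of the selecting genes Trbc2, Cd3e, Gzma, Nkg7, Ncr1 and Cd3g were found in 1.26%, 1.24%, 0.468%, 0.194%, 0.0971% and 0.0827% of them. Because the cells were chosen by such genes, these levels describe the selection and test nothing.

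Genes of group 2 innate lymphoid cells were at or near 0 in the selected cells. Il5 and Il13, the group 2 cytokines, had no UMI in any of the 135 cells, which allows a mean level of up to 3 counts in the 1164776 UMIs of these cells. Gata3, a factor of T cells and group 2 cells, was at 16.2 CPM in PS-MP and 20.1 CPM in control, in 3 and 14 cells, against 0.312 CPM in the remaining cells. Il1rl1, the IL-33 receptor gene, had 0 UMIs in PS-MP and 9 in 3 cells in control. Of the 8 selecting genes a group 2 cell would carry mainly Il7r, so the selection itself can leave such cells out and these values do not bear on whether the ovaries held them. For cells with Ncr1 and no T-cell receptor transcripts the data do not tell NK cells and type 1 innate lymphoid cells apart.

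Beyond the 8 selecting genes, the 25 genes with the highest level in selected cells over all other cells were mostly genes of T and NK cells, again as a description. They included the gamma and delta receptor constant genes Trgc2, Trgc4 and Trdc, 7 Klr genes (Klra5, Klre1, Klri2, Klra1, Klrk1, Klrd1 and Klrb1b), the effector genes Gzmb, Ctsw, Xcl1 and Ccl5, the receptor and signalling genes Sh2d2a, Icos, Cd226 and Il2rb, and Gimap3, Ptprcap, Ms4a4b, AW112010, Gm19585 and Gm2682. Xcl1, the chemokine that draws cross-presenting dendritic cells, was at 420 CPM in selected cells and 0.503 CPM in all others. Ccl5 was at 877 CPM and 2.99 CPM in the same sets, and Trgc2 at 118 CPM and 0.0866 CPM. Ccl5 was also at 69.8 CPM in the other cells with a Ptprc UMI, so it was less restricted than Xcl1 (8.596 CPM) or Trgc2 (0 CPM) there.

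**Figure D3:**
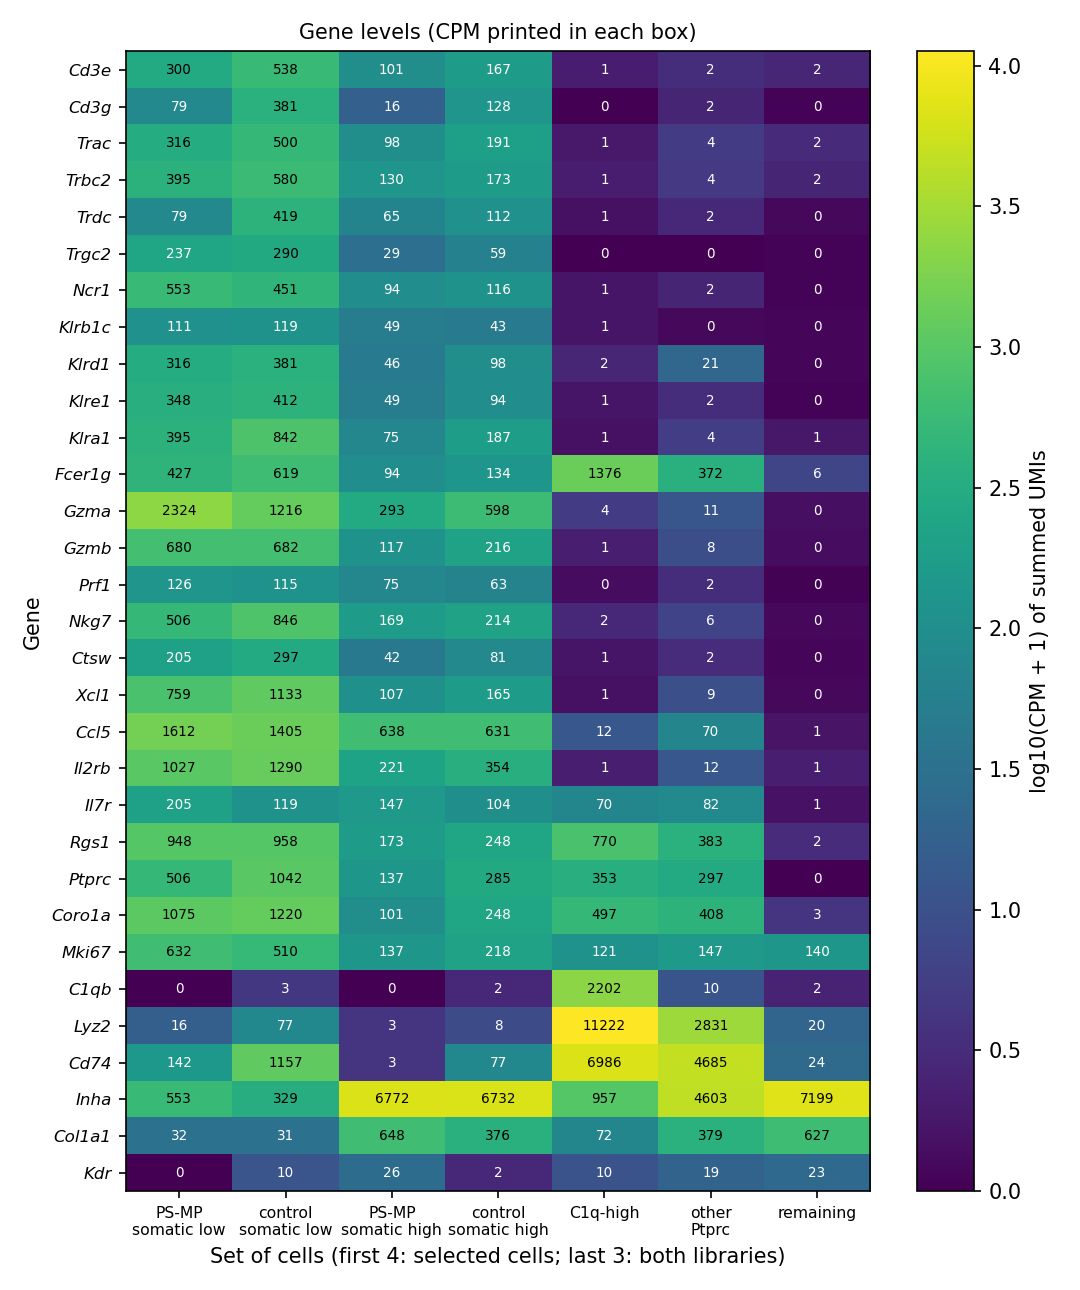
Rows are genes and columns are sets of cells, the first 4 being selected cells (PS-MP before control, somatic-low then somatic-high) and the last 3 other cells of both libraries; colour is log10(CPM + 1) of the summed UMIs and the CPM is printed in each box. Within each library most lymphoid genes are higher in the somatic-low than in the somatic-high column, and most are near 0 in the remaining cells. Inha in the somatic-high columns is close to 7199 CPM in the remaining cells.

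Markers of other leukocytes were mostly low in the selected cells, with exceptions in control. Of 10 macrophage markers 6 had no UMI in PS-MP and 2 had none in control, and the 7 other than the C1q genes, which the selection capped, summed to 105 CPM in PS-MP and 104 CPM in control, against 24792 CPM in C1q-high cells, which were themselves defined by C1q, and 103 CPM in the remaining cells. Of 7 B-cell markers 5 in PS-MP and 3 in control, among them Ms4a1 and Pax5 in both, had no UMI, and the list summed to 10.8 CPM in PS-MP and 95.7 CPM in control selected cells and to 31.6 and 217 CPM in somatic-low cells. Most of this was Ighm, the IgM heavy chain gene, at 31.6 CPM in PS-MP and 161 CPM in control somatic-low cells and in 2 of 10 and 21 of 46 of them, and without the control cells high in dendritic markers it was still at 138 CPM in 19 of 42. Its part in the differences between PS-MP and control was not tested. Of 7 mast cell and neutrophil genes, Cpa3, Tpsb2, S100a8, S100a9 and Csf3r were at 0 in both libraries and Retnlg in PS-MP alone. That list summed to 13.5 CPM in PS-MP and 7.55 CPM in control. Dendritic-cell markers were uneven. They summed to 213 CPM in PS-MP, where Flt3, Xcr1, Clec9a, Cd209a, Itgax and Siglech were at 0, and to 1257 CPM in control, where 1 cell reached 43142 CPM. In all, 0 selected cells in PS-MP and 5 in control had 2500 CPM or more of these markers.

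Within the somatic-low cells, T-cell receptor and NK transcripts marked partly separate cells. A UMI of Trac (the alpha constant gene) or Cd3e without Ncr1 was found in 19 cells, 3 of them in PS-MP and 16 in control. Both kinds were found in 11 cells, 1 in PS-MP and 10 in control, and Ncr1 alone in 26 cells, 6 in PS-MP and 20 in control. No somatic-low cell had none of these genes. The selection required any 3 of 8 genes, Ncr1 and Cd3e among them, so it favoured cells with these genes without requiring them. Its part in the absence of cells with neither was not tested.

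Several genes that the selection did not use were divided in the same way, and others were not. Trgc2 had a UMI in 12 of the 19 Trac or Cd3e cells, in 5 of the 11 cells with both and in 0 of the 26 Ncr1 cells. The CD4 co-receptor gene Cd4 was seen in 5, 1 and 0 cells of those sets. Cxcr6, the homing receptor of liver and tissue lymphocytes, was seen in 10, 8 and 5, its largest share being in the cells with both. In the other direction Klri2, an NK receptor gene, was seen in 2, 5 and 18 cells and Klrk1, which encodes the stress-ligand receptor NKG2D, in 4, 8 and 21. Eomes, the T-box factor of conventional NK cells, was seen in 1, 2 and 12 cells and was at 50 to 90 CPM in the first and second sets against 325 CPM in the Ncr1 cells. Tbx21, which encodes T-bet, did not follow this order, with 5, 7 and 9 cells. Of the listed T-cell subset genes, Icos, Ctla4 and Cd28 were found in 11, 9 and 8 of the 26 Ncr1 cells. Cd8a, Cd8b1, Cd5, Cd6, Foxp3 and Cd40lg had no UMI there.

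Some T-cell receptor transcripts were also present in Ncr1 cells that had neither Trac nor Cd3e. Trbc1, a beta-chain constant gene, had a UMI in 18 of these 26 cells, at 291 CPM, Trdc in 12, at 284 CPM, and Cd3g in 10, at 173 CPM. Trbc2, a selecting gene, was found in 11 of them, at 222 CPM. Of the gamma genes Trgc4 was found in 12, at 166 CPM, while Trgc1 and Trgc2 had none. In the remaining ovarian cells Trbc1 and Trdc were at 0.228 and 0.210 CPM. Over all 56 somatic-low cells, Trbc1 was found with Ncr1 in 26 cells and without it in 5, whereas Trac was found with Ncr1 in 9 and without it in 16.

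The cytotoxic genes were graded over the same sets. Gzma, the serine protease granzyme A, was at 162 CPM in the Trac or Cd3e cells, 582 CPM in cells with both and 2998 CPM in the Ncr1 cells, where 16 of 26 had a UMI. Prf1, the pore-forming perforin, was at 22.03, 116 and 208 CPM and Gzmb (granzyme B) at 301, 320 and 1212 CPM. Granzyme B UMIs were nevertheless found in about the same share of each set, in 9 of 19, 6 of 11 and 12 of 26 cells. Xcl1 was at 617, 888 and 1572 CPM. The deepest PS-MP cell fell in the first set, where it held 14 of the 22 Gzma UMIs. Gzma and Ncr1 were used for the selection, and the 3 sets pool both libraries.

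**Figure D4:**
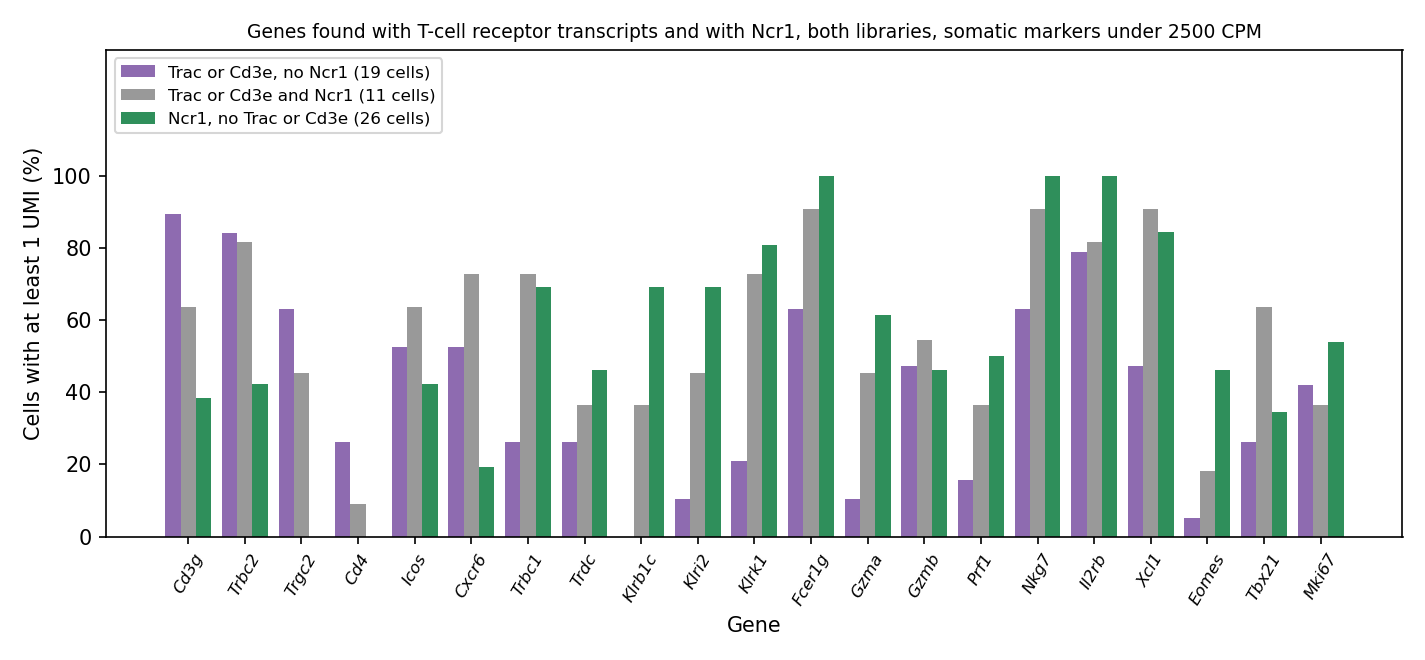
Bars give the percentage of somatic-low cells with at least 1 UMI of each gene on the x axis, for 19 cells with Trac or Cd3e and no Ncr1, 11 cells with both and 26 cells with Ncr1 alone, both libraries pooled. Trgc2 and Cd4 are at 0 in the cells with Ncr1 alone and Klrb1c is at 0 in the cells with Trac or Cd3e alone, while Trbc1, Trdc and Gzmb appear in all 3 sets.

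Few cells carried the genes of classical T-cell subsets. Cd4 was detected in 0 of 42 cells in PS-MP and 11 of 93 in control, and Cd8a in 2 cells in PS-MP and 6 in control, with 15 of the 18 PS-MP UMIs in 1 cell. Foxp3, the regulatory T-cell factor, was in 0 cells in PS-MP and 4 in control. Icos, a T-cell costimulatory receptor, was the most frequent of this list, in 23 of 42 cells in PS-MP and 44 of 93 in control, at 173 and 161 CPM. In somatic-low cells 6 of the 18 listed genes reached 100 CPM, 2 of them at least 1.5-fold higher in PS-MP and 3 lower, whereas without the deepest cell 3 were higher and 1 lower. With that cell in, 3 of the 6 passed through control alone and 2 through PS-MP alone.

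The balance of the classes differed between the libraries. Cells with at least 2 of Cd3d, Cd3e, Cd3g, Trac, Trbc1 and Trbc2 were 21 of 42, 50% (34.2 to 65.8), in PS-MP and 73 of 93, 78.5% (68.8 to 86.3), in control. Cells with fewer of these and a UMI of Ncr1 or Klrb1c were 20 of 42, 47.6% (32.0 to 63.6), in PS-MP and 20 of 93, 21.5% (13.7 to 31.2), in control. The PS-MP over control ratio was 0.637 (0.372 to 1.05) for the T-cell receptor class and 2.21 (1.13 to 4.34) for the Ncr1 or Klrb1c class. These ratio intervals treat the counts as rare events and are too wide for shares this large. The intervals of the shares themselves, given above, did not overlap between PS-MP and control for either class. With 1 of the 6 genes were 10 cells in PS-MP and 11 in control, and with exactly 2 were 7 in PS-MP and 17 in control, so many cells lie beside the limit. Among somatic-low cells the T-cell receptor class was 6 of 10, 60% (26.2 to 87.8), in PS-MP and 37 of 46, 80.4% (66.1 to 90.6), in control, and those intervals overlapped. Of the 6 genes 3, Cd3e, Cd3g and Trbc2, belong to the selection.

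Between the libraries 2197 genes had at least 100 CPM in PS-MP or control selected cells. PS-MP stood above control by 1.5-fold or more for 233 (10.6%) of these and below it by as much for 236 (10.7%), and the median log2 ratio was -0.0046. In somatic-low cells, where 10 cells stood for PS-MP, 574 (24.2%) of 2371 genes passed that limit upward and 537 (22.6%) downward, with a median of -0.013. Without the deepest cell 675 (28%) of 2408 genes passed upward and 465 (19.3%) downward, with a median of 0.13. These shares over all genes are the background for every count per gene list below. A gene that reached 100 CPM in control alone could hardly appear as higher in PS-MP: 312 genes passed through control alone and 283 through PS-MP alone over all selected cells. Likewise a gene that reached it in PS-MP alone could hardly appear as lower. In somatic-low cells 486 genes passed through control alone and 492 through PS-MP alone.

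The T-cell receptor and CD3 genes were lower in PS-MP over all selected cells, and part of that gap was absent from the somatic-low cells. Of 16 listed genes 11 reached 100 CPM, 7 of them in control alone, and 0 were higher and 11 lower by that limit, with a median log2 ratio of -1.16. In somatic-low cells 12 were measured, 5 of them through control alone, with 0 higher, 8 lower and a median of -0.76, and without the deepest cell 1 was higher and 5 lower with a median of -0.25. Cd3g, the CD3 gamma chain and a selecting gene, was at 27.01 CPM in PS-MP and 219 CPM in control (10 and 174 UMIs), a ratio of 0.123 (0.0581 to 0.232). Among somatic-low cells Cd3g was at 79.0 CPM in PS-MP and 381 CPM in control, a ratio of 0.207 (0.0660 to 0.499), and of 0.241 (0.0646 to 0.636) without the deepest cell. With every cell thinned to 3500 UMIs, Cd3g was found in 11.9% (3.98 to 25.6) of selected cells in PS-MP and 41.9% (31.8 to 52.6) in control, and unthinned in 19.0% and 55.9%.

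Trdc, the delta constant gene, was lower on each basis, at 67.5 CPM in PS-MP and 223 CPM in control over all selected cells, and at 79.0 CPM in PS-MP and 419 CPM in control among somatic-low cells (0.188, 0.0601 to 0.452; 0.164 without the deepest cell). Trac did not stay past 1.5-fold on each basis. It was at 135 CPM in PS-MP and 302 CPM in control (ratio 0.447, 0.323 to 0.608), at 316 and 500 CPM in somatic-low cells (0.632, 0.375 to 1.01), and at a ratio of 0.874 (0.511 to 1.42) without the deepest cell. The proximal kinase gene Lck was at 138 CPM in PS-MP and 256 CPM in control, at 364 and 461 CPM in the somatic-low cells of PS-MP and control, and at a ratio of 1.15 without the deepest cell. Trbc1 had a ratio above 1 in somatic-low cells, at 237 CPM in PS-MP and 196 CPM in control (1.21, 0.636 to 2.17). Trbc1 and Trbc2, and the Trgc genes among themselves, are close copies, and the division of reads between such copies is not stated in any source used here.

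NK and ILC1 receptor genes were lower over all selected cells, and much of that gap was absent from the somatic-low cells. Of 27 listed genes 10 were measured, 5 of them through control alone, and 0 were higher and 7 lower, with a median log2 ratio of -1.05. In somatic-low cells 17 were measured, 1 higher and 5 lower, with a median of -0.25, and without the deepest cell 18, 5 higher and 5 lower, with a median of 0.15. Ncr1, a selecting gene, was at 173 CPM in PS-MP and 237 CPM in control (0.730, 0.541 to 0.975), but at 553 CPM in PS-MP and 451 CPM in control in the somatic-low cells (1.23, 0.819 to 1.79), and at a ratio of 1.78 (1.19 to 2.61) without the deepest cell. Klre1, a receptor paired with other Klr chains, was at 99.9 CPM in PS-MP and 209 CPM in control, and at 348 and 412 CPM in somatic-low cells.

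Klra1, a Ly49 receptor for MHC class I, stayed lower, at 130 CPM in PS-MP and 423 CPM in control and at 395 CPM in PS-MP and 842 CPM in control among somatic-low cells (0.469, 0.298 to 0.709; 0.628, 0.390 to 0.964, without the deepest cell). Tyrobp, the DAP12 adaptor through which several of these receptors signal, was at 99.9 CPM in PS-MP and 292 CPM in control selected cells, a ratio of 0.342, with the same ratio in somatic-low cells and 0.459 (0.233 to 0.822) without the deepest cell. It is not specific to lymphocytes and was at 1218 CPM in C1q-high cells. The Klra genes are also close paralogs of each other.

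Of 17 cytotoxic genes 7 were measured over all selected cells, 0 higher and 4 lower in PS-MP, with a median log2 ratio of -0.77. In somatic-low cells 10 were measured, 1 higher and 2 lower, with a median of -0.0037, and without the deepest cell 3 were higher and 0 lower, with a median of 0.25. Gzmb was at 213 CPM in PS-MP and 384 CPM in control (0.556, 0.428 to 0.714) and at 680 CPM in PS-MP and 682 CPM in control somatic-low cells (0.997, 0.699 to 1.39). Nkg7 was at 227 CPM in PS-MP and 442 CPM in control, and in somatic-low cells at 506 CPM in PS-MP and 846 CPM in control (0.598, 0.400 to 0.867; 0.842, 0.560 to 1.23, without the deepest cell). Prf1 was at 83.7 CPM in PS-MP and 81.8 CPM in control, and at 126 and 115 CPM in somatic-low cells.

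Gzma reversed between the bases. It was at 640 CPM in PS-MP and 821 CPM in control over all selected cells (0.780, 0.669 to 0.906), and at 2324 CPM in PS-MP and 1216 CPM in control among somatic-low cells (1.91, 1.56 to 2.32; 2.51, 2.04 to 3.08, without the deepest cell). The PS-MP value rested on 3 cells, 1 of which held 74 of the 147 UMIs, whereas in control 20 of 46 somatic-low cells held Gzma. The share of somatic-low cells with a UMI did not go the same way, at 3 of 10 in PS-MP and 20 of 46 in control.

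Chemokine genes made up most of the secreted factors. Of 19 listed cytokine and chemokine genes 4 were measured, 0 higher and 3 lower in PS-MP, in somatic-low cells 5 were measured, 0 higher and 2 lower, and without the deepest cell 6, 2 higher and 2 lower. Ccl5 was at 805 CPM in PS-MP and 910 CPM in control (0.884, 0.770 to 1.01) and at 1612 and 1405 CPM in somatic-low cells (1.15, 0.914 to 1.43; 1.52, 1.20 to 1.91, without the deepest cell). Xcl1 was at 219 CPM in PS-MP and 514 CPM in control (0.426, 0.331 to 0.542) and at 759 CPM in PS-MP and 1133 CPM in control somatic-low cells (0.670, 0.484 to 0.909; 0.832, 0.586 to 1.15, without the deepest cell). Ccl3, an inflammatory chemokine, had 4 UMIs in 3 cells in PS-MP and 138 UMIs in 26 cells in control, a ratio of 0.0622 (0.0167 to 0.163), and 2 UMIs in PS-MP and 88 in control in somatic-low cells (0.103, 0.0123 to 0.382; 0.149 without the deepest cell). C1q-high cells held more Ccl3, 743 CPM, than the selected cells of either library. Its neighbour Ccl4 was at 135 CPM in PS-MP and 418 CPM in control, but at 506 and 535 CPM in somatic-low cells, there in 2 cells of PS-MP and 17 of control. Ifng, the type 1 cytokine interferon gamma, was seen in 0 cells in PS-MP and 8 in control with 14 UMIs, of which somatic-low cells held 9 UMIs in 5 cells.

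Among 15 cytokine receptor genes 4 were measured, 0 higher and 1 lower, whereas in somatic-low cells 7 were measured, with Il7r and Il18rap higher and Tgfbr2 lower, and without the deepest cell 8, 3 higher and 1 lower. Il2rb was at 359 CPM in PS-MP and 691 CPM in control (0.520, 0.427 to 0.629), and its ratio among somatic-low cells was 0.797 (0.602 to 1.04), and 1.12 (0.845 to 1.47) without the deepest cell. Il7r, the survival receptor of T cells and innate lymphoid cells and a selecting gene, was at 157 CPM in PS-MP and 110 CPM in control, at 205 and 119 CPM in somatic-low cells (1.73, 0.837 to 3.36), and at 70.2 CPM in C1q-high cells. Of 12 chemokine and homing receptors all 3 measured were lower in PS-MP, in somatic-low cells 6 were measured, 1 higher and 3 lower, and without the deepest cell 7, 3 higher and 3 lower. Ccr2, the receptor for monocyte chemoattractants, stayed lower in somatic-low cells, at 158 CPM in PS-MP and 444 CPM in control (0.356, 0.167 to 0.676; 0.414, 0.175 to 0.841, without the deepest cell), whereas Cxcr4 stood at 332 and 353 CPM there.

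Of 14 residency genes 7 were measured, 0 higher and 5 lower, in somatic-low cells 9, 1 higher and 3 lower, and without the deepest cell 10, 3 higher and 2 lower. Rgs1, a G-protein regulator of resident lymphocytes, was at 305 CPM in PS-MP and 503 CPM in control (0.606, 0.488 to 0.749) and at 948 CPM in PS-MP and 958 CPM in control somatic-low cells (0.990, 0.736 to 1.31; 1.37, 1.01 to 1.83, without the deepest cell). The integrin gene Itga1, a marker of resident NK and T cells, had 1 UMI in PS-MP and 38 in control in somatic-low cells. That is 15.8 and 133 CPM, a ratio of 0.119 (0.00294 to 0.704). Without the deepest cell the ratio was 0.173 (0.00427 to 1.02), an interval that includes 1. Of 19 actin and motility genes 18 were measured, 0 higher and 7 lower in PS-MP. In somatic-low cells all 19 were measured, 0 higher and 2 lower, and without the deepest cell 1 was higher and 2 lower. Coro1a was at a ratio of 0.447 (0.356 to 0.556) over all selected cells, of 0.881 (0.669 to 1.15) in somatic-low cells and of 1.24 (0.941 to 1.62) without the deepest cell.

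**Figure D5:**
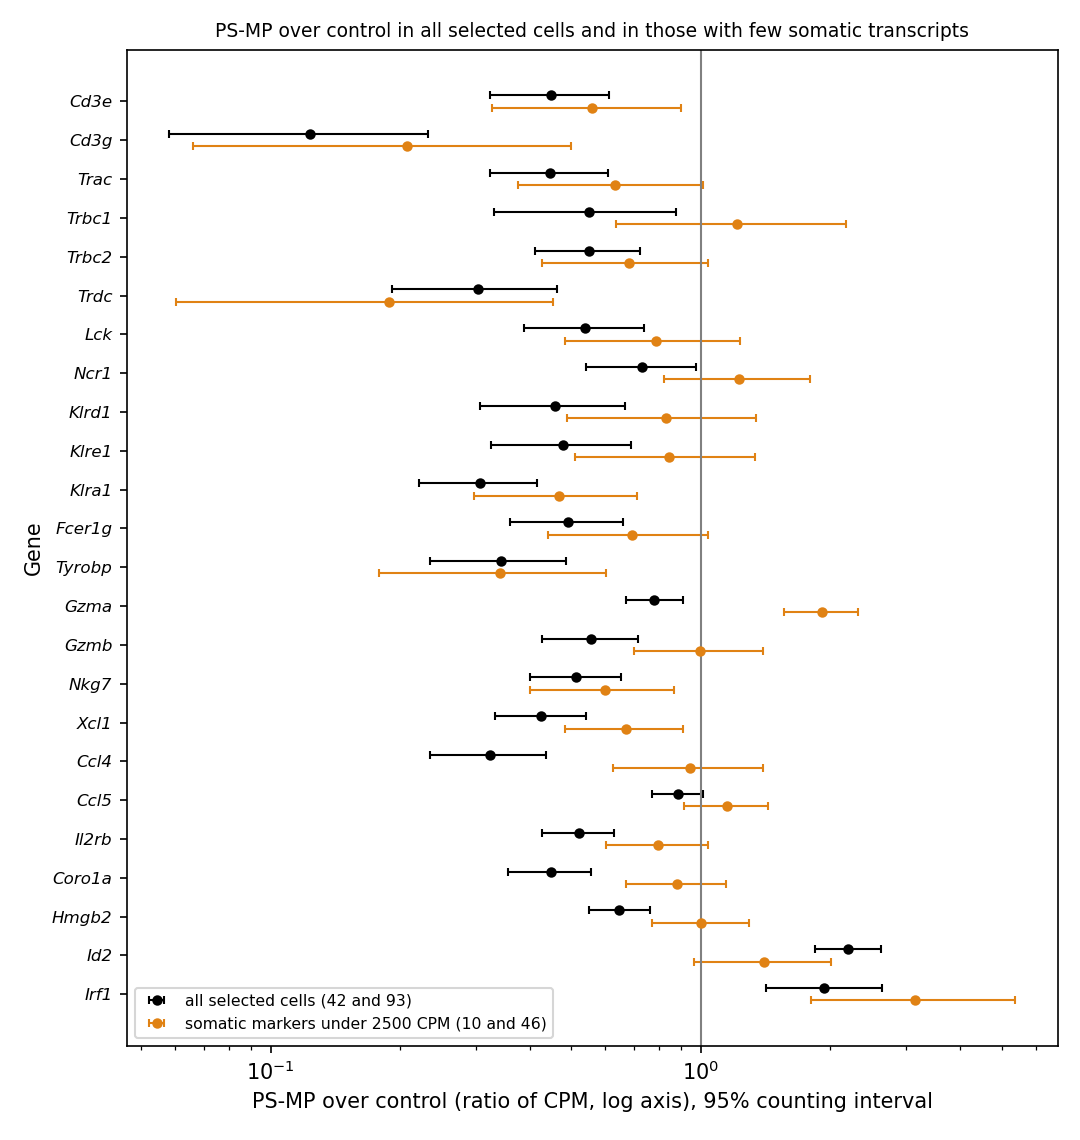
Points are the ratio of PS-MP over control CPM on a log axis and bars are 95% counting intervals, for all selected cells (black) and for somatic-low cells (orange), with the deepest PS-MP cell included. Over all selected cells 22 of the 24 genes drawn lie left of 1, whereas in somatic-low cells the intervals of Ncr1, Gzmb, Ccl4, Il2rb, Coro1a and Hmgb2 include 1 and Gzma lies right of it.

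Lymphoid transcription factor genes went both ways, with more lower than higher in PS-MP over all selected cells and more higher than lower in somatic-low cells. Of 24 listed genes 10 were measured over all selected cells, 3 of them through control alone. Of the 10 measured 1 was higher and 4 lower in PS-MP, with a median log2 ratio of -0.37. In somatic-low cells 15 were measured, 3 higher and 2 lower, with a median of -0.11, and without the deepest cell 14, 5 higher and 3 lower, with a median of 0.33. Over all genes the shares higher and lower were 10.6% and 10.7% in selected cells and 24.2% and 22.6% in somatic-low cells. Without the deepest cell those shares were 28% and 19.3%. Eomes had 5 UMIs in 4 cells in PS-MP and 71 UMIs in 23 cells in control, a ratio of 0.151 (0.0476 to 0.369). In somatic-low cells it had 0 UMIs in 10 cells of PS-MP, which allows a share of cells with a UMI of up to 30% and does not limit the share that express it, and was found in 15 of 46, 32.6%, in control. With each of these cells thinned to 3500 UMIs, Eomes was in 0 of 10 in PS-MP and 14 of 46 in control, 30.4% (17.7 to 45.8). Tbx21 was at 79.0 CPM in PS-MP and 101 CPM in control somatic-low cells (0.780, 0.236 to 2.04). Runx3 and Ets1, factors of cytotoxic and T-lineage cells, were at ratios of 0.475 and 0.522 over all selected cells and of 0.790 and 0.929 in somatic-low cells, and of 1.15 and 1.35 without the deepest cell.

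Id2, an inhibitor of E proteins needed by NK and innate lymphoid cells, was the factor gene that was higher in PS-MP over all selected cells, at 702 CPM against 320 CPM in control (2.20, 1.84 to 2.62). A single PS-MP cell held 101 of its 260 UMIs there, and without the highest cell of each library the ratio was 1.42. In somatic-low cells Id2 stood at 648 CPM in PS-MP and 461 CPM in control (1.40, 0.964 to 2.01; 1.84, 1.24 to 2.67, without the deepest cell), and at 341 CPM in the remaining cells.

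Proliferation transcripts were prominent in the somatic-low cells. Mki67, a marker of cycling cells, was at 632 CPM in PS-MP and 510 CPM in control, in 5 of 10 and 21 of 46 cells, against 140 CPM in the remaining cells. Top2a, a DNA topoisomerase of dividing cells, was at 901 CPM in PS-MP and 720 CPM in control, against 362 CPM in the remaining cells, and Hmgb2 at 1170 and 1168 CPM, against 308 CPM. The 13 somatic-low cells with fewer than 2 of the 6 T-cell receptor and CD3 genes were at 908 CPM and the 43 with at least 2 at 432 CPM for Mki67, and at 1423 and 573 CPM for Top2a. Of 20 proliferation genes 14 were measured over all selected cells, 0 higher and 5 lower in PS-MP (Pcna, Mcm6, Stmn1, Rrm2 and Hmgb2). In somatic-low cells 16 were measured, 2 higher and 3 lower, with a median log2 ratio of 0.018. Without the deepest cell, which held no UMI of Mki67 or Top2a, 18 were measured, 9 higher and 0 lower, with a median of 0.61, Mki67 at a ratio of 1.80 (1.24 to 2.57) and Hmgb2 at 1.42 (1.08 to 1.83).

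Among immediate early genes, the higher values of PS-MP in somatic-low cells came in large part from the deepest cell. Of 16 listed 14 were measured over all selected cells, with Egr1, Atf3, Zfp36 and Btg2 higher in PS-MP and 0 lower, and in somatic-low cells 14, the same 4 higher and Fos, Klf2 and Klf6 lower. The deepest cell held 26 of 35 Egr1, 9 of 11 Atf3, 45 of 50 Zfp36 and 32 of 64 Btg2 UMIs of the PS-MP somatic-low cells. Without it 13 were measured, Btg2 alone higher and Fos, Jun, Zfp36 and Klf6 lower, and Zfp36, which encodes an mRNA-destabilising protein, was at a ratio of 0.279 (0.0888 to 0.669), against 1.92 (1.35 to 2.69) with it. Btg2, an antiproliferative gene, was at 1012 CPM in PS-MP and 409 CPM in control somatic-low cells, in 10 of 10 and 38 of 46 cells, a ratio of 2.47 (1.79 to 3.38) and of 1.80 (1.18 to 2.68) without the deepest cell, and at 676 CPM in the remaining cells.

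Of 30 interferon response genes 2 were measured over all selected cells, 1 higher (Irf1) and 0 lower. In somatic-low cells 6 were measured, 2 of them through PS-MP alone and 1 through control alone. Of these 4 were higher, Irf1 and Gbp2 among them, and 2 lower, and without the deepest cell 7 were measured, 4 higher and 1 lower. Irf1, an interferon-induced factor, was at 221 CPM in PS-MP and 115 CPM in control (1.93, 1.42 to 2.64), against 149 CPM in the remaining cells. Among somatic-low cells it was at 395 CPM in PS-MP and 126 CPM in control (3.14, 1.81 to 5.38), with 17 of the 25 PS-MP UMIs in the deepest cell, and at a ratio of 1.46 (0.587 to 3.20) without it. Gbp2, an interferon-induced GTPase under 100 CPM over all selected cells, was at 158 CPM in PS-MP and 55.9 CPM in control somatic-low cells (2.83, 1.15 to 6.62; 4.11, 1.67 to 9.63, without the deepest cell). Ifit1 had 23 UMIs in PS-MP, all in 1 somatic-high cell, and 0 in control.

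Of 13 glycolysis genes 9 were measured, and Aldoa, Tpi1, Pgk1 and Pgam1 were higher in PS-MP and 0 lower. The list summed to 4999 CPM in PS-MP and 3385 CPM in control selected cells, against 4694 CPM in the remaining cells, and somatic-high cells were 76.2% of selected cells in PS-MP and 50.5% in control; the part of somatic transcripts in this difference was not tested. Aldoa (aldolase) was at 1388 CPM in PS-MP and 729 CPM in control, against 1238 CPM in the remaining cells, and at 680 CPM in PS-MP and 364 CPM in control somatic-low cells, where the deepest cell held 28 of the 43 PS-MP UMIs and the ratio without it was 0.949 (0.513 to 1.64). In somatic-low cells Hk2, Aldoa and Pgk1 were higher and 0 of 9 lower, and without the deepest cell 0 of 8 passed either way. The MHC class I heavy-chain gene H2-K1 was at 1132 CPM in PS-MP and 1266 CPM in control and at 2608 and 2209 CPM in somatic-low cells, a ratio of 1.18 there and of 1.58 (1.32 to 1.89) without the deepest cell. Of 6 MHC class I genes measured over all selected cells 0 passed 1.5-fold either way. In somatic-low cells H2-T23 and Tap1 of 8 were higher and 0 lower, and without the deepest cell H2-K1 as well. On both somatic-low bases H2-T23 and Tap1 reached 100 CPM through PS-MP alone, with 73.4 and 66.4 CPM in control, so they could hardly have been called lower.

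Among genes at least as high in selected cells as in all others, the 10 with the largest PS-MP over control ratios were Rasl11a, Gpx3, Ddit4, Runx2, Id2, Abhd2, Pttg1, Ube2c, Mylk and Tmem176b, at ratios from 5.72 to 1.79. Gpx3, a secreted glutathione peroxidase, was at 764 CPM in PS-MP and 140 CPM in control (5.47, 4.38 to 6.88), but 217 of its 283 PS-MP UMIs came from 1 cell, the deepest somatic-low cell, and the ratio without the highest cell of each library was 1.65. That cell also held 23 of the 40 Rasl11a UMIs of PS-MP. Tmem176b, an ion channel gene listed here with group 3 cells, was at 365 CPM in PS-MP and 204 CPM in control (1.79, 1.41 to 2.26), in 31 of 42 and 53 of 93 cells. In somatic-low cells it was at 616 CPM in PS-MP and 185 CPM in control (3.33, 2.14 to 5.13; 3.60 without the deepest cell), in 8 of 10 and 16 of 46 cells, and in C1q-high cells at 608 CPM.

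The 10 lowest were Tnfrsf9, Fyb, Inpp4b, Klra5, Trgc1, Cd3g, Nrgn, Dock10, Ccl3 and Cd74, at ratios from 0.284 to 0.058. Dock10, a guanine exchange factor of lymphocytes, was spread over many cells, with 5 UMIs in 4 of 42 cells in PS-MP and 114 UMIs in 50 of 93 in control, a ratio of 0.0941 (0.0300 to 0.226). In somatic-low cells it had 1 UMI in PS-MP and 80 UMIs in 33 of 46 cells in control, a ratio of 0.0565 (0.00141 to 0.324), and of 0.0822 (0.00206 to 0.471) without the deepest cell. Fyb, an adaptor downstream of the T-cell receptor, was at 81.0 CPM in PS-MP and 286 CPM in control, and at 158 and 517 CPM in somatic-low cells (0.306, 0.144 to 0.578; 0.444, 0.209 to 0.840, without the deepest cell). Inpp4b, a phosphoinositide phosphatase, was at 67.5 CPM in PS-MP and 264 CPM in control, and at a ratio of 0.268 (0.113 to 0.543) in somatic-low cells and 0.390 (0.165 to 0.790) without the deepest cell.

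Cd74, the invariant chain of MHC class II, was at 27.01 CPM in PS-MP and 466 CPM in control (0.058, 0.0276 to 0.108), and H2-Aa, an MHC class II chain, at 13.5 CPM in PS-MP and 312 CPM in control. Without the 5 control cells that had 2500 CPM or more of dendritic markers, a restriction made after seeing the data, Cd74 was at 27.01 CPM in PS-MP and 25.3 CPM in control and H2-Aa at 13.5 CPM in PS-MP and 18.6 CPM in control, and in somatic-low cells Cd74 was then at 142 CPM in PS-MP and 51.1 CPM in control. All 5 cells held at least 2 of the 6 T-cell receptor and CD3 genes.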

How the data were processed

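Raw UMI counts per gene and cell, as deposited by the authors, were used for both libraries; the submitters' processing notes name GRCm39 and Seurat without a role, and no source used here states the counting settings. Cells with at least 500 genes and at most 25% mitochondrial counts were kept, 14770 of 15056 in PS-MP and 14853 of 15373 in control. The cells and gene lists were chosen with earlier results of these data known. Counts were summed over the cells of a set and scaled to CPM. Ratios carry exact conditional binomial intervals and shares exact Clopper-Pearson intervals, at 95% and for counting error only (scipy 1.17.1). A gene with 0 counts in a library was set to 3 counts for the 1.5-fold calls, and ratios with both libraries at 3 counts or fewer were left out. Named genes were those with the 10 highest and 10 lowest ratios among genes with at least 100 CPM in a library, a UMI in at least 10% of selected cells and a level at least that of all other cells (ribosomal, mitochondrial, haemoglobin, Gm and Rik genes left out), the 25 genes highest over all other cells, and list members by role. Doublets were called with scrublet (scanpy 1.11.5). TMM factors came from edgeR 4.0.16. Detection was compared after thinning cells to 3500 UMIs. The ratio calculation was checked on simulated counts. Symbols were used as the files give them, and 29373 were found in either file. Promoters were matched by symbol in RefSeq, all 4 found, taking the first of 2 entries for Ncr1. A few genes of the lists are not reported here.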

Additional observations from a re-analysis of the deposited data

How the results depend on the processing

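No paired analysis was possible because each group is 1 library. The share of selected cells was lower in PS-MP under all 11 alternatives, with a PS-MP over control ratio between 0.219 and 0.866. It was 0.281 with at least 4 of the 8 genes (0.129% in PS-MP, 0.458% in control), 0.866 among cells with a Ptprc UMI (5.81% and 6.71%) and 0.219 for somatic-low cells (0.0677% and 0.310%), the last chosen after seeing the data. The shares also moved, with their ratio inside the counting interval, to 0.440% in PS-MP and 0.842% in control with at least 2 genes and to 0.156% and 0.417% after thinning. The T-cell receptor class was 33.3% in PS-MP and 60.2% in control with at least 3 of the 6 genes, and 73.8% and 90.3% with at least 1. After thinning it was 38.1% (23.6 to 54.4) in PS-MP and 58.1% (47.4 to 68.2) in control, and those intervals overlapped. Limits of 1500 or 4000 CPM on somatic markers, also chosen after seeing the data, left the somatic-low ratio at 0.206 and 0.276.

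Counts of genes at least 1.5-fold higher and lower in PS-MP (233 and 236) were 616 and 602 at a floor of 50 CPM, 98 and 90 at 200 CPM, 2143 and 2445 with no filter, 403 and 435 within the Ncr1 or Klrb1c class, 574 and 537 in somatic-low cells, and 675 and 465 in somatic-low cells without the deepest PS-MP cell, the last added after seeing the data. The count of higher genes was 391 with at least 4 of the 8 genes and 358 within the T-cell receptor class. Dividing by the median ratio (1.00) or by TMM factors (1.02), averaging per-cell CPM and leaving out doublet calls kept both counts within 1.5 times. Of the 20 named genes 5 turned direction under an alternative: Ddit4 in somatic-low cells (0.678, and 0.986 without the deepest cell), and Rasl11a (0.692), Runx2 (0.820), Mylk (0.619) and Cd74 (2.91) within the Ncr1 or Klrb1c class. The cause was not tested. The 42 selected and 10 somatic-low cells of PS-MP, with 31.2% of the UMIs of the 10 in 1 cell, limit every value, abundant genes included.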
